A study of Mus musculus with 4 samples.

Results

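Chemokines and their receptors were examined in the epidermis of newborn mice with and without deletion of Skiv2l in keratinocytes. Members were taken by name, as every gene called Ccl, Cxcl, Cx3cl, Xcl, Ccr, Cxcr, Cx3cr, Xcr or Ackr followed by a digit and optional letters. This gave 60 of the 54752 gene identifiers in the tables, of which 38 were ligands, 18 were signalling receptors and 4 were atypical receptors. FPKM, a fragment level per transcript length and sequencing depth, exceeded 0.5 in at least 1 library for 26 of the 60 (14 ligands, 9 receptors and 3 atypical receptors). All 26 were tested, 26 others were listed above 0 but never above 0.5, and 8 were listed at 0 in all 4 libraries.

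Chemokines are small secreted or membrane-bound proteins that bind receptors coupled to G proteins on other cells and direct where those cells move. Atypical receptors bind chemokines without the usual G protein signal and remove them from the tissue. In skin, keratinocytes make some chemokines at all times and others after injury or in inflammation, and the resident Langerhans cells and T cells of the epidermis carry several of the receptors.

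Total RNA was sequenced from the epidermis of 4 C57BL/6 pups at P0 (the day of birth), 2 Skiv2l fl/fl K14-Cre, here also called knockouts, and 2 littermate Skiv2l ctl, and the comparison asks which transcripts differ once the RNA helicase SKIV2L is lost from the epidermis. In Skiv2l fl/fl K14-Cre pups both Skiv2l alleles are flanked by loxP sites, and Cre is driven from the K14 promoter, which is active in keratinocytes, so that other cells in the epidermis keep the gene. The study's Skiv2l ctl group takes in littermates that are Skiv2l fl/fl or Skiv2l fl/+, the latter with or without K14-Cre, and the genotype of each control pup is not given, so a control may carry Cre. The ratio of coverage to FPKM placed the libraries at 5.84 to 6.27 aligned gigabases. Skiv2l itself (chr17:34839228-34850210, GRCm38) was at 19.3 and 19.1 FPKM in controls against 10.8 and 8.55 in Skiv2l fl/fl K14-Cre littermates. The labels therefore fit the targeted gene, whose log2 fold change was -0.92 (SE 0.12, limma adjusted p = 0.00368). All 8 keratinocyte markers were far above the 0.5 threshold in every library.

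Cxcr2, a chemokine receptor best known from neutrophils, rose most among the tested members, and Ccl20, Ccr9 and Cxcl16 rose as well. Cxcl14, the most abundant chemokine transcript of this epidermis, fell to 0.491 of the control level, and Ccl6, Ccl27a, Cx3cl1, Ccr4, Ccr10, Cxcr4, Cx3cr1 and Ackr3 fell with it. Called members are those with an adjusted p under 0.05 from limma on log2(FPKM + 1), adjusted over 13609 protein-coding genes, and on that scale the change of a gene at low FPKM is understated. The 4 members called higher were 15.4% of the 26 tested, against a background of 8.99% of all tested genes called higher, and the 9 called lower were 34.6%, against 25.4% of all tested genes called lower. The median log2 fold change was -0.34 over the 26 members and -0.20 over all tested genes. With library medians set equal, the median over all genes moved to -0.03, the share called higher to 13.9% and the share called lower to 11.9%, while the same 4 members were called higher and the same 9 lower. No test of the list against other genes was made. In whole epidermis, fewer cells of a type and less RNA per cell cannot be told apart.

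**Figure D1:**
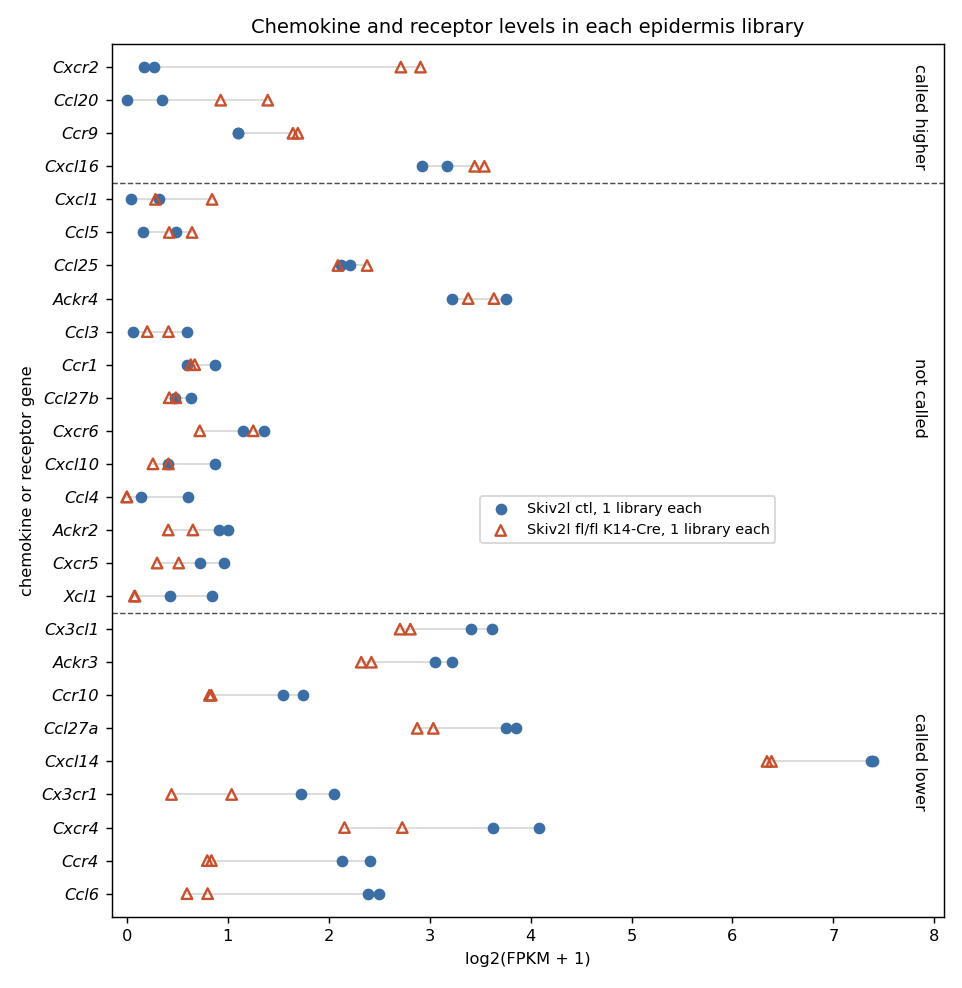
Levels of the 26 tested chemokine and receptor genes on the log2(FPKM + 1) scale, 1 point for each library, filled circles for Skiv2l ctl and open triangles for Skiv2l fl/fl K14-Cre. The 4 genes at the top were called higher, the 9 at the bottom were called lower, and in all 13 the libraries of the 2 genotypes do not overlap.

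**Figure D2:**
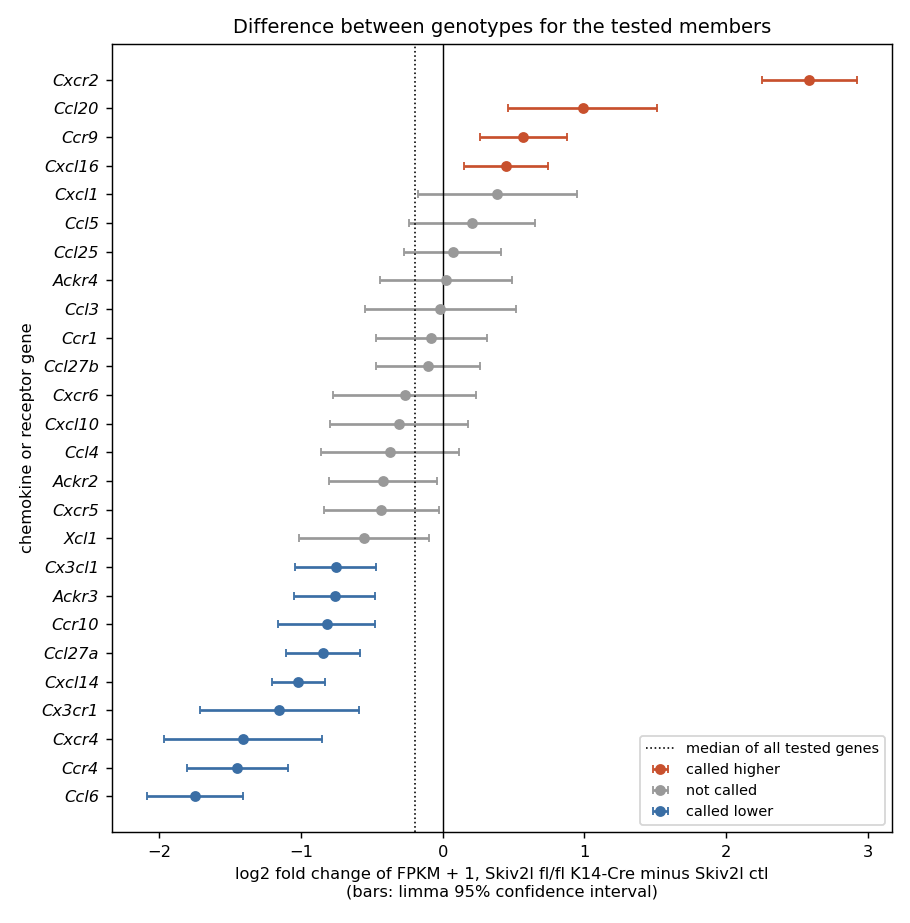
Log2 fold change of FPKM + 1 for the 26 tested members, Skiv2l fl/fl K14-Cre minus Skiv2l ctl, with the limma 95% confidence interval as bars and the median of all tested genes as a dotted line. Cxcr2 stands at 2.59 and Ccl6 at -1.75, and the intervals of 10 of the 13 members that were not called include 0.

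Every called member kept both Skiv2l fl/fl K14-Cre libraries on one side of both controls. Over the 26 tested members, both knockout libraries lay above both controls for 4 and below both for 13, against 18.2% and 55.3% of all tested genes. The shares are close to the background, so an absence of overlap alone says little about a member here. An exact permutation test of 2 against 2 libraries cannot give a p below 0.333, and each p below comes from the limma fit, which borrows the spread of all genes.

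Among the ligands, Cxcl14 made up most of the signal. Cxcl14 is a chemokine made constitutively by epithelia, skin among them. Its FPKM (chr13:56288643-56296551) was 168 and 164 in controls against 80.1 and 82.7 in Skiv2l fl/fl K14-Cre pups, so the 2 libraries of each genotype were close to each other and far from those of the other. The group means were 166 ± 2.29 and 81.4 ± 1.84 (SD, n = 2), and the log2 fold change was -1.02 (SE 0.08, limma adjusted p = 0.000589). Summed over the 38 ligands, FPKM was 207 and 211 in control and 115 and 113 in knockout epidermis. Of that sum, Cxcl14 held 80.9% and 77.8% in controls against 69.5% and 73.5% in knockouts. The 37 other ligands together were at 39.5 and 46.8 FPKM in controls against 35.1 and 29.9 in knockouts.

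**Figure D3:**
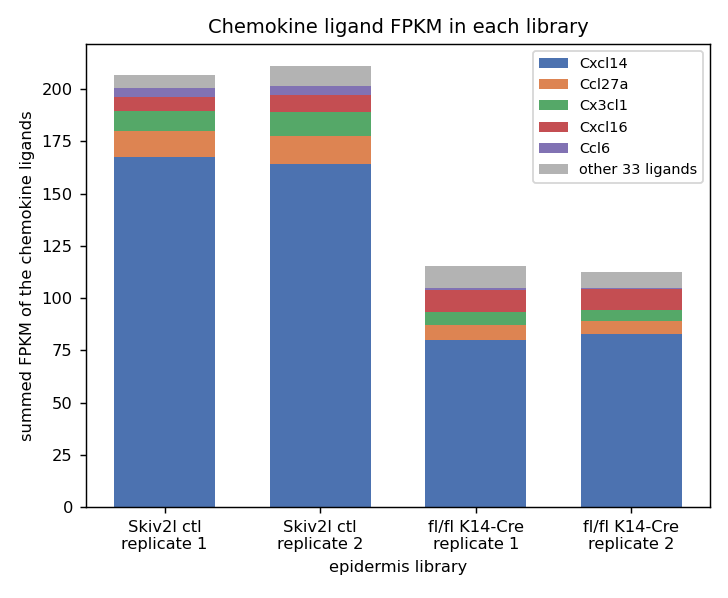
Summed FPKM of the 38 chemokine ligands in each library, stacked by gene. The controls reach 207 and 211 and the Skiv2l fl/fl K14-Cre libraries 115 and 113, and Cxcl14 is the largest block in all 4 bars.

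Ccl27a and Cx3cl1, also ligands of the resting epidermis, fell as well. Ccl27a (chr4:41769467-41774247), the keratinocyte chemokine that binds Ccr10 on skin-homing T cells, was at 12.5 and 13.4 FPKM in control and 7.2 and 6.35 in knockout epidermis. The controls were 1.91 times higher on the mean without overlap, and the log2 fold change was -0.84 (SE 0.11, limma adjusted p = 0.00304). Cx3cl1 (chr8:94772009-94782427), or fractalkine, a membrane-anchored chemokine that can be shed, was at 9.61 and 11.3 FPKM in controls against 6.01 and 5.53 in knockouts. The groups did not overlap, and its log2 fold change was -0.76 (SE 0.12, limma adjusted p = 0.00585). Of the 75-base stretches in Ccl27a transcripts, 33.3% also occur in near-identical copies on chromosome 4, and Ccl27b shares 98.0% of its own, so the division of reads among these genes is uncertain. Ccl27b was at 0.388 and 0.559 FPKM in control and 0.40 and 0.338 in knockout epidermis, and the predicted copy Gm13306 at 0.994 and 1.44 against 0.661 and 0.571. Without Skiv2l ctl replicate 2, the limma adjusted p was 0.0553 for Ccl27a and 0.0764 for Cx3cl1.

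On the log2 scale, the fall in Ccl6 was the largest of the 26 tested members. Ccl6 (chr11:83587882-83593087) is a rodent chemokine made mostly by myeloid cells, and it acts on Ccr1. It was at 4.25 and 4.66 FPKM in controls against 0.742 and 0.511 in knockouts. The controls stood 7.11 times higher on the mean, and the log2 fold change was -1.75 (SE 0.14, limma adjusted p = 0.000672). Its receptor Ccr1 was at 0.508 and 0.834 FPKM against 0.594 and 0.551, with the knockouts inside the range of the controls. The log2 fold change of Ccr1 was -0.08 with a 95% interval of -0.47 to 0.31 (limma adjusted p = 0.713). Next to Ccl6 on chromosome 11, Ccl9 never passed 0.328 FPKM.

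Of the 2 ligands that rose, Ccl20 came from near absence and Cxcl16 was abundant in both genotypes. Ccl20 (chr1:83116766-83119167) is the chemokine that draws Ccr6-bearing lymphocytes and dendritic cells to epithelia. It was listed at 0 and 0.276 FPKM in control and at 1.63 and 0.905 in knockout epidermis. The log2 fold change was 0.99 (SE 0.22, limma adjusted p = 0.0181). Both knockouts were above both controls, at a mean per-base read depth of 5.51 and 3.08 against 0 and 1.09. Its only signalling receptor, Ccr6, was listed at 0 in all 4 libraries. Without Skiv2l ctl replicate 1, Skiv2l ctl replicate 2 or Skiv2l fl/fl K14-Cre replicate 1, the limma adjusted p of Ccl20 was 0.107, 0.0581 and 0.0635.

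Cxcl16 (chr11:70453983-70459984) is a transmembrane chemokine and scavenger receptor whose soluble form attracts Cxcr6-bearing T cells. It was at 6.59 and 8.03 FPKM in controls against 10.6 and 9.90 in knockouts. The knockouts were higher by 1.41 times on the mean, and the log2 fold change was 0.44 (SE 0.12, limma adjusted p = 0.0354). The call was lost without any 1 of the 4 libraries, at a limma adjusted p of 0.0646 to 0.213. Exons of Zmynd15 on the opposite strand overlap 18.3% of the exon bases of Cxcl16, and Zmynd15 was at 2.74 and 3.42 FPKM in control and 2.37 and 1.74 in knockout epidermis, the opposite direction. Cxcr6, its receptor, was at 1.23 and 1.56 FPKM against 1.38 and 0.650, and its log2 fold change of -0.27 had a 95% interval of -0.77 to 0.24 (limma adjusted p = 0.340).

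Cxcr2 is the receptor through which neutrophils follow the CXC chemokines that carry a glutamate-leucine-arginine motif. It lies at chr1:74153989-74161246. FPKM was 0.127 and 0.208 in controls against 6.51 and 5.56 in knockouts, which put the gene from place 33 to place 5 in the order of the 60 members by mean FPKM. The means differed 36 times, at 0.168 ± 0.0573 and 6.04 ± 0.671 (SD, n = 2), and the log2 fold change was 2.59 (SE 0.14, limma adjusted p = 0.000202). The per-base read depth was 34.9 and 33.0 in the knockouts and 0.774 and 1.31 in the controls. Cxcr1, the neighbouring receptor gene that shares some of these ligands, was listed at 0 in both controls and at 0.116 and 0.108 in the knockouts, under the level tested.

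Of the neutrophil list, the granule and surface genes that mark the cell most narrowly were at 0 or low in both genotypes. Ly6g and Elane were listed at 0 in all 4 libraries, and Mpo and Retnlg were above 0 in 1 library each, at 0.0615 and 0.0973 FPKM. Camp, at 0.169 and 0.345 FPKM in controls against 0.372 and 0.165 in knockouts, Ngp, at 0.286 and 0.157 against 0.265 and 0.115, and Mmp8, at 0.143 and 0.0842 against 0.234 and 0.0949, were above 0 in every library, near the control level of Cxcr2, with the groups overlapping. Itgam, found on neutrophils and other myeloid cells, was at 3.47 and 3.55 FPKM in control and 3.39 and 3.30 in knockout epidermis. Csf3r was at 0.119 and 0.462 FPKM against 0.315 and 0.461. S100a8 and S100a9, which keratinocytes also make, were at 775 and 804 and at 974 and 965 FPKM in the knockouts and did not pass 1.61 in a control. The 9 other genes of the neutrophil list summed to 4.19 and 4.69 FPKM in controls against 4.64 and 4.14 in knockouts. Which cells carried the Cxcr2 transcript was not tested.

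The 5 CXC ligands of this set that carry the glutamate-leucine-arginine motif were scarce. Cxcl1 was at 0.249 and 0.0274 FPKM in control and 0.796 and 0.217 in knockout epidermis, so the groups overlapped. Its log2 fold change was 0.38 with a 95% interval of -0.18 to 0.95 (limma adjusted p = 0.231). Cxcl2 stayed between 0.161 and 0.341 FPKM in all 4 libraries. Cxcl3 was listed at 0 and 0.0152 FPKM in controls against 0.318 and 0.425 in knockouts, below the tested level, and Cxcl5 and Cxcl15 were listed at 0 throughout. Summed, the 5 ligands were at 0.457 and 0.336 FPKM in control and 1.45 and 0.803 in knockout epidermis.

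The 250 bases upstream of 4 of these genes are printed to show where the members linked to Cxcr2 and the inducible Ccl20 do and do not share the letters GGGANNNNCC, the core read by the factor NF-kB, which drives many inflammatory chemokines. The sequences are from RefSeq on GRCm38.p6, plus strand, ending just before the annotated start, at chr1:74153744-74153993 for Cxcr2, chr1:83116516-83116765 for Ccl20, chr5:90890995-90891244 for Cxcl1 and chr5:90785851-90786100 for Cxcl3. Capitals mark each match on either strand.
Cxcr2: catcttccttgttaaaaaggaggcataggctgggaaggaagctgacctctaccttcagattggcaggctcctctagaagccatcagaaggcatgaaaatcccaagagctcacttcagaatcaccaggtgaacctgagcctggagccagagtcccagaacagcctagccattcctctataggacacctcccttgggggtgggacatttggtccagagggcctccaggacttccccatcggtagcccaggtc
Ccl20: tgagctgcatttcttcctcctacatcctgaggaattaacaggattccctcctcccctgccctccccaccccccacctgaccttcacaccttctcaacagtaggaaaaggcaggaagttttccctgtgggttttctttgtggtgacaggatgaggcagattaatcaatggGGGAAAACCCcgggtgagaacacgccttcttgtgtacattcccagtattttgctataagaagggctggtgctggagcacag
Cxcl1: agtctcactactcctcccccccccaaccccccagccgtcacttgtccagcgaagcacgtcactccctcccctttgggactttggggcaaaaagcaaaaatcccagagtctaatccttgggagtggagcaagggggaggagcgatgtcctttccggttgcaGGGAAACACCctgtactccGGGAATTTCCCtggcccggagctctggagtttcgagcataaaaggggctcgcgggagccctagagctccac
Cxcl3: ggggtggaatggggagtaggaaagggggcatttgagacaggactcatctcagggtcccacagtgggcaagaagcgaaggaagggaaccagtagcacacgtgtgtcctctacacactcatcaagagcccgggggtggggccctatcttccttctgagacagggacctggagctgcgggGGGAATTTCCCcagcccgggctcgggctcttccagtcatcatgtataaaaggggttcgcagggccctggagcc

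The match in Ccl20 lies 81 to 72 bases before the start. Cxcl1 holds matches at 90 to 81 and, on both strands in overlap, at 71 to 61 bases before the start, and Cxcl3 holds an overlapping pair at 73 to 63. The printed window of Cxcr2 holds no match. RefSeq promoters were found for 46 of the 60 members, and 19 of them held the letters in at least 1 window, against 17.6% of 32851 promoters. Among the 21 tested members with a promoter, 8 held them, namely Ackr2, Ccl20, Ccl27a, Ccl27b, Ccr1, Ccr9, Cxcl1 and Cxcl10, of which 2 were called higher and 1 lower. The letters TGANTCA, bound by AP-1, were in 6 of the 46 members, against 6.7% of all promoters, and the TATA box letters TATAAA in 14, against 12.4%, each on either strand. Members with several promoters had more windows in which to match, and a match here describes letters only.

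Ccr9 also rose. This receptor guides T cells to the thymus and small intestine along its ligand Ccl25. Ccr9 (chr9:123678439-123784330) was at 1.15 and 1.15 FPKM in controls against 2.13 and 2.24 in knockouts. The knockouts were close to each other and above both controls, and the log2 fold change was 0.57 (SE 0.13, limma adjusted p = 0.0185). The annotated gene reaches into its neighbours: AC165425.1 on the opposite strand covers 18.8% of its exon bases and Gm17200 on the same strand 2.6%, while Slc6a20a on the opposite strand shares 22 bases. Gm17200 was at 0.582 and 0.841 FPKM in control and 2.24 and 1.12 in knockout epidermis, and Slc6a20a at 2.47 and 2.77 against 22.5 and 18.9. Gm17200 and Slc6a20a were higher in both knockouts, as Ccr9 was. No value was available here for AC165425.1, which has the largest overlap. The part of these neighbours in the value of Ccr9 was not tested. The limma adjusted p was 0.0995, 0.0986 and 0.0586 without Skiv2l ctl replicate 1, Skiv2l ctl replicate 2 or Skiv2l fl/fl K14-Cre replicate 2.

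Ccl25 was at 3.35 and 3.63 FPKM in controls against 4.21 and 3.26 in knockouts, with the groups overlapping. Its log2 fold change was 0.07 and the 95% interval ran from -0.27 to 0.41 (limma adjusted p = 0.716). Ackr4, the atypical receptor that clears Ccl25 along with Ccl19 and Ccl21, was the second highest member in the knockouts. It was at 8.33 and 12.5 FPKM in control and 9.42 and 11.4 in knockout epidermis. The knockouts lay inside the range of the controls, and the 95% interval of the log2 fold change, -0.44 to 0.49, leaves room for a change in either direction (limma adjusted p = 0.936). Exons of Acad11 on the opposite strand overlap 8.9% of its exon bases, and Acad11 was at 13.9 to 16.1 FPKM.

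The 4 signalling receptors that fell are best known from leukocytes. Ccr4 (chr9:114490316-114504916), the receptor of skin-homing and regulatory T cells for Ccl17 and Ccl22, was at 4.31 and 3.37 FPKM in controls against 0.788 and 0.738 in knockouts. The controls were 5.03 times higher on the mean, and the log2 fold change was -1.45 (SE 0.15, limma adjusted p = 0.00144). Of its ligands, Ccl22 was at 0.243 and 0.407 FPKM in control and 0 and 0.0457 in knockout epidermis, and Ccl17 was above 0 only in Skiv2l fl/fl K14-Cre replicate 1, at 0.117. Both ligands were under the tested level.

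Ccr10 (chr11:101172997-101175443), which binds Ccl27a and Ccl28, was at 2.36 and 1.92 FPKM in controls against 0.786 and 0.763 in knockouts. The log2 fold change was -0.82 (SE 0.14, limma adjusted p = 0.00816), and it was called together with its ligand Ccl27a. Ccl28 did not pass 0.335 FPKM in any library. Without Skiv2l ctl replicate 1 the limma adjusted p of Ccr10 was 0.0601.

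Cxcr4 (chr1:128588199-128592293), the receptor that holds leukocytes and progenitors where Cxcl12 is made, was the second highest member in the controls. It was at 11.4 and 15.9 FPKM in control and 3.46 and 5.63 in knockout epidermis, without overlap although both groups spread widely. The log2 fold change was -1.41 (SE 0.23, limma adjusted p = 0.00669). Ackr3 (chr1:90203980-90216751), which scavenges the same ligand, was at 7.28 and 8.34 FPKM against 4.36 and 4.0. Its log2 fold change was -0.76 (SE 0.12, limma adjusted p = 0.00551). Cxcl12 was at 0.224 and 0.237 FPKM in controls against 0.435 and 0.493 in knockouts, the member just outside the threshold of 0.5, while Ccl3 at 0.507 and Ccl4 at 0.519 in 1 control were just inside. Without Skiv2l ctl replicate 2 the limma adjusted p was 0.0742 for Cxcr4 and 0.0768 for Ackr3, and without Skiv2l ctl replicate 1 it was 0.0521 for Ackr3.

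Cx3cr1 (chr9:119901616-120069879), the fractalkine receptor of monocytes and tissue macrophages, was at 2.32 and 3.16 FPKM in control and 1.05 and 0.359 in knockout epidermis. In FPKM the SD was nearly as large in the knockouts as in the controls, around a much lower mean. The means were 0.707 ± 0.491 in knockouts and 2.74 ± 0.594 in controls (SD, n = 2). All 4 values were in order by genotype. The log2 fold change was -1.15 (SE 0.23, limma adjusted p = 0.0136), and its ligand Cx3cl1 fell as well. The limma adjusted p was 0.0654 without Skiv2l ctl replicate 1 and 0.103 without Skiv2l ctl replicate 2.

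**Figure D4:**
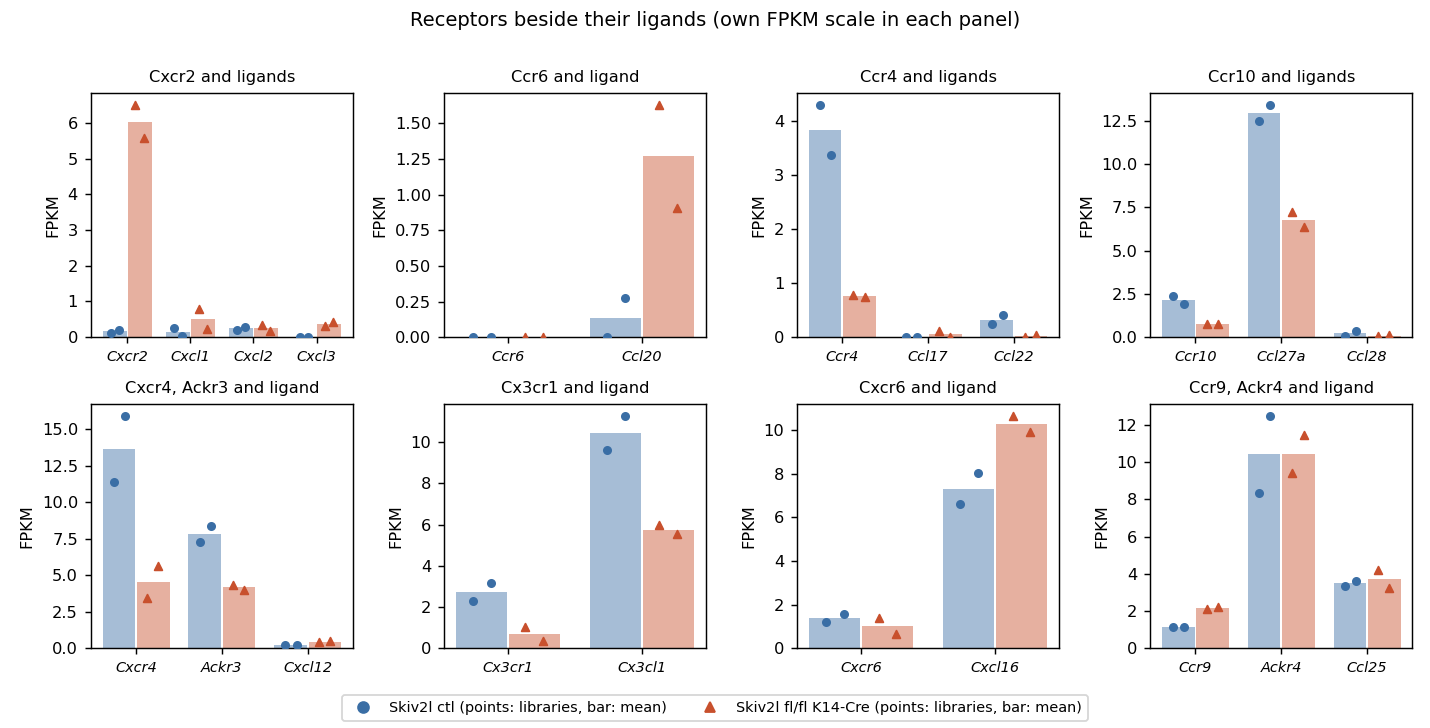
FPKM of called receptors and ligands beside their partners, each panel with its own axis from 0, bars for the mean of 2 libraries and points for the libraries. Cxcr2 rises to 6.51 and 5.56 beside ligands that stay under 0.8, Ccl20 rises where Ccr6 is at 0, and Ccr10 with Ccl27a and Cx3cr1 with Cx3cl1 are lower together.

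Some leukocyte markers were also lower in the knockouts. Ptprc, the pan-leukocyte CD45, was at 3.57 and 3.31 FPKM in controls against 1.87 and 1.71 in knockouts (log2 fold change -0.67, SE 0.12, limma adjusted p = 0.0101). Of 8 pan-leukocyte markers 4 fell, against 25.4% of all tested genes, and both knockouts lay below both controls for 7, or 87.5% against 55.3%. Their summed FPKM was 43.6 and 50.6 in control and 31.0 and 24.8 in knockout epidermis. The Langerhans cell list, 6 of whose 7 tested genes fell, summed to 40.4 and 47.2 FPKM against 19.6 and 17.2. Its defining gene Cd207 was at 0.0401 and 0.0417 FPKM in the controls and at 0 in the knockouts, so the list rests on MHC class II genes, Cd74, Csf1r and Mfge8, which other cells share. None of the 4 tested T cell markers was called by limma (1 was lower at an unadjusted p under 0.05), and that list summed to 4.29 and 5.24 FPKM in controls against 3.24 and 3.23 in knockouts. Their part in the lower Ccl6, Ccr4, Ccr10, Cxcr4 and Cx3cr1 was not tested.

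The other marker lists were mixed. Of 10 tested macrophage and monocyte genes 1 fell, Csf1r, and the 11 of the list summed to 43.6 and 65.8 FPKM against 43.0 and 33.3. Of 5 tested fibroblast genes 2 fell, Dcn and Col1a2, with sums of 61.3 and 69.0 against 21.9 and 25.0 FPKM, most of it Dcn. Lyve1 rose among 3 tested endothelial genes, and limma called none of 5 melanocyte genes or of 1 tested NK cell gene (1 melanocyte gene was higher at an unadjusted p under 0.05). Mast cell and B cell genes stayed under 0.5 FPKM. Of the 8 keratinocyte genes 3 rose (Krt14, Dsp and Perp) and 1 fell (Krt1), or 37.5% and 12.5% against the same background.

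The 7 remaining tested members, beside Ccr1, Cxcl1, Cxcr6, Ccl25, Ackr4 and Ccl27b described above, were low, and none was called. Xcl1, the ligand that activated T cells and NK cells make for Xcr1 on dendritic cells, came closest, at 0.341 and 0.790 FPKM in control and 0.0576 and 0.0532 in knockout epidermis. Both knockouts were below both controls, with a log2 fold change of -0.55 (SE 0.19, limma adjusted p = 0.0650), and Xcr1 did not pass 0.0726 FPKM. Ackr2, which scavenges inflammatory CC chemokines, was at 0.998 and 0.881 FPKM against 0.574 and 0.329 (limma adjusted p = 0.0807). Cxcr5, the follicle-homing receptor, was at 0.653 and 0.943 FPKM against 0.428 and 0.231 (limma adjusted p = 0.0889), and its ligand Cxcl13 was listed at 0 in all libraries.

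Ccl3, Ccl4 and Ccl5 are chemokines made by activated T cells and macrophages. Ccl4 was at 0.102 and 0.519 FPKM in controls and listed at 0 in both knockouts (limma adjusted p = 0.188), and Ccl3 ranged from 0.0429 to 0.507 FPKM with the knockouts inside the range of the controls. Ccl5 was at 0.404 and 0.119 FPKM in controls against 0.338 and 0.565 in knockouts (limma adjusted p = 0.40). Cxcl10, the interferon-induced ligand of Cxcr3, was at 0.329 and 0.833 FPKM against 0.196 and 0.331, overlapping narrowly (limma adjusted p = 0.263). Exons of Art3, which rose from 1.12 and 1.45 to 6.13 and 5.24 FPKM, overlap 5.9% of those of Cxcl10 on the opposite strand. The 3 Cxcr3 ligand genes Cxcl9, Cxcl10 and Cxcl11 summed to 0.329 and 0.891 FPKM in control and 0.196 and 0.354 in knockout epidermis. Of these, Cxcl11 is annotated as a polymorphic pseudogene.

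At or under 0.5 FPKM in all 4 libraries were 24 ligands and 10 receptors. The ligands were Ccl1, Ccl2, Ccl7, Ccl8, Ccl9, Ccl11, Ccl12, Ccl17, Ccl19, Ccl21a, Ccl21b, Ccl22, Ccl24, Ccl26, Ccl28, Cxcl2, Cxcl3, Cxcl5, Cxcl9, Cxcl11, Cxcl12, Cxcl13, Cxcl15 and Cxcl17. Ackr1, Ccr2, Ccr3, Ccr6, Ccr7, Ccr8, Cxcr1, Cxcr3 and Xcr1 were among the receptors. Among them Ccr3, the eosinophil receptor, was at 0.0100 and 0 FPKM in controls against 0.324 and 0.289 in knockouts. The ligands Ccl2, Ccl7, Ccl8 and Ccl12 summed to 0.249 and 0.212 FPKM in control and 0.0311 and 0 in knockout epidermis. The 8 members listed at 0 throughout were Ccl7, Ccl8, Ccl24, Ccl26, Ccr6, Cxcl5, Cxcl13 and Cxcl15.

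By position, 14 members lie on chromosome 11, 13 on chromosome 9 and 11 on chromosome 5. On chromosome 11, 6 of the 14 passed 0.5 FPKM, with Cxcl16 called higher and Ccl6 and Ccr10 lower. On chromosome 9, with most receptors of the set, 8 of the 13 passed, with Ccr9 called higher and Ccr4 and Cx3cr1 lower. Chromosome 5 holds the Cxcr2 and Cxcr3 ligands, and 2 of its 11 members passed, Cxcl1 and Cxcl10, neither of them called. Over all chromosomes, 8.99% of all tested genes were called higher and 25.4% lower. A link between position and calls was not tested.

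Genes that act with the members outside the naming rule were taken from 4 lists. Of 19 tested genes of receptor signalling and desensitisation, 2 rose and 6 fell, or 10.5% and 31.6% against 8.99% and 25.4% of all tested genes, and the median log2 fold change of -0.19 was close to the -0.20 over all tested genes. Arrestin genes moved in opposite directions, Arrb1 from 2.12 and 2.92 to 3.95 and 7.14 FPKM (log2 fold change 0.86, limma adjusted p = 0.0431) and Arrb2 from 10.2 and 9.39 to 6.63 and 5.25 FPKM (-0.64, limma adjusted p = 0.0141). Rgs16, which shortens G protein signals, fell from 0.824 and 0.870 to 0.0542 and 0.101 FPKM (-0.78, limma adjusted p = 0.0105). Grk6, a kinase that turns receptors off, fell from 27.2 and 27.9 to 19.1 and 15.0 FPKM (-0.67, limma adjusted p = 0.0107).

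Of 10 tested genes that cut chemokines or hold them on the cell surface, 2 rose and 4 fell. These were 20.0% and 40.0%, against 8.99% and 25.4% of all tested genes. The median log2 fold change of -0.22 was also close to that of all tested genes. Dpp4, the protease that trims the amino terminus of many chemokines, fell from 9.18 and 10.3 to 5.18 and 4.32 FPKM (-0.90, limma adjusted p = 0.00385). Mmp2, a metalloprotease that cleaves Cxcl12 among others, fell from 6.10 and 6.48 to 2.49 and 2.09 FPKM (-1.15, limma adjusted p = 0.00168). The heparan sulfate proteoglycan gene Sdc1 rose from 117 and 120 to 219 and 184 FPKM (0.76, limma adjusted p = 0.00396), and Furin rose from 79.5 and 83.1 to 125 and 116 FPKM (0.56, limma adjusted p = 0.00484). Sdc4, also a heparan sulfate proteoglycan gene, fell from 84.9 and 95.1 to 61.8 and 64.3 FPKM (-0.50, limma adjusted p = 0.00940). Ext2 fell from 23.1 and 23.7 to 17.6 and 16.2 FPKM (-0.45, limma adjusted p = 0.0138).

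Regulators of chemokine mRNA decay counted 2 higher of 11 tested and none lower, or 18.2% and 0.0% against 8.99% and 25.4% of all tested genes. In the limma fit 2 were lower at an unadjusted p under 0.05, and the median log2 fold change was -0.04. Zc3h12a, which encodes the endonuclease Regnase-1, rose from 10.7 and 10.4 to 20.1 and 23.4 FPKM (0.97, limma adjusted p = 0.00183). Arid5a, which encodes an RNA-binding protein that protects inflammatory transcripts, rose from 3.87 and 5.11 to 14 and 7.86 FPKM (1.08, limma adjusted p = 0.0227). The 9 others, Zfp36 and Elavl1 among them, were not called. Of 11 tested chemokine-related genes whose names fall outside the rule, 1 fell, or 9.09% against 25.4% of all tested genes, with a median of -0.10. That gene was Cd74, the receptor chain for Mif and the invariant chain of MHC class II, at 13.1 and 16.4 FPKM in controls against 4.61 and 4.39 in knockouts (-1.51, limma adjusted p = 0.000857).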

How the data were processed

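Epidermal RNA of 4 P0 pups, 2 Skiv2l ctl and 2 Skiv2l fl/fl K14-Cre, was grouped by the genotype in the labels. The authors processed reads with the Astrocyte RNASeq workflow of their institution and deposited, for each library, FPKM, TPM and coverage per gene. FPKM deposited by the authors is scaled for transcript length and library size. TPM deposited by the authors is scaled to a common sum. Coverage, the third signal the authors deposited, is a mean per-base read depth. The aligner and the strandedness of counting are not given in the sources used here. Values of a repeated identifier were summed. Reads and counts were not analysed here, so counting error is not known and depth is known only as aligned gigabases.

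The 13609 protein-coding genes (GENCODE M21, GRCm38) above 0.5 FPKM in at least 1 library entered a fit of log2(FPKM + 1) in R 4.3.3 with the package limma 3.58.1 (eBayes with a trend, two-sided, Benjamini-Hochberg over all tested genes), after the script was tested on simulated data. Group values are means ± SD of 2 pups. Overlaps of exons and shared 75-base stretches were counted on GENCODE transcripts, and letters were searched in 250 bases of RefSeq promoters with Python 3.11.15. All 3 motifs searched are reported. Amino acid sequences were not analysed here. The name and values of 1 untested member are not reported here.

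Named are every called member, each tested member that was not called, the partners of called members, Skiv2l, and up to 4 called genes a list with the largest change. The untested members, genes that overlap or neighbour a member, marker genes, Sdc4 and Ext2 were named by need after their values were seen. Members and lists were chosen with earlier results of these data known. Alternatives were another pseudocount, 2 other filters, all gene classes, TPM, median scaling, quantile normalization, eBayes without a trend, a replicate block, a fold threshold, and leaving out each library. Replicates are separate pups, and their number limits the precision.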

Additional observations from a re-analysis of the deposited data

How the results depend on the processing

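The 4 members called higher became 7 with no filter on low FPKM. There 51 members were tested and 10 were called lower. Of all tested genes 5.69% were called higher and 13.8% lower. The share of all tested genes passing a 2-fold requirement was not counted. The number called higher was 1 when at least a 2-fold change of FPKM + 1 was also required. By that measure Ccl20, 9.20 times higher in the knockouts on mean FPKM, fell short at a log2 fold change of 0.99. Ccr10, called lower, also fell short at -0.82, with controls 2.76 times higher on the mean. The 9 called lower became 5 with the 2-fold requirement and 4 to 9 when a single library was left out. The lowest counts came without a control, 1 higher and 7 lower without Skiv2l ctl replicate 1 and 1 higher and 4 lower without Skiv2l ctl replicate 2. In those fits the shares over all tested genes fell as well, to 3.65% and 3.98% called higher and to 5.92% and 5.95% called lower. Cxcr2, Cxcl14, Ccl6 and Ccr4 kept their call under every alternative run. With the replicate block, 4 members were called higher and 9 lower, the same genes as without it, and same-numbered libraries did not deviate together (correlation of -0.08), so the numbers were not taken as pairs. With no filter, Cx3cr1 and Cxcl16 were lost (limma adjusted p = 0.0513 and 0.0759), Cxcl16 was lost over all gene classes (0.0508), and Ccr3, Cxcl3, Cxcl12, Cxcr1, Ccl12 and Ccl22 were gained. With TPM, 6 of 40 tested members were called higher and 11 lower, against 7.75% and 26.8% of all tested genes. Ccr3, Cxcl3, Ccl22 and Xcl1 were gained with TPM. Requiring FPKM above 1 in at least 2 libraries left 15 members tested. Ccl20 was then untested, as it passed 1 FPKM only in Skiv2l fl/fl K14-Cre replicate 1, at 1.63. Why the other calls differed between settings was not tested. The sign turned only for members that were not called. Ackr4 went to -0.021 with TPM and ran from -0.24 to 0.29 when a single library was left out (-0.10 without Skiv2l fl/fl K14-Cre replicate 2), and Ccl25 ran from -0.074 to 0.21. Ccl27b went to 0.073 with quantile normalization. Ccl3 went to 0.16 with a pseudocount of 0.1, to 0.023 and 0.11 with median scaling and quantile normalization, and ran from -0.28 to 0.25 when a single library was left out. Ccr1 went to 0.00059 and 0.090 with those scalings and ran from -0.22 to 0.060 when a single library was left out. Xcl1 passed the threshold with a pseudocount of 0.1, with TPM, without the trend and without Skiv2l ctl replicate 1, and Ackr2 without the trend. Of all called genes, 26.1% were higher, and 53.9% with median scaling. Depth was thin at the threshold, where 0.507 FPKM of Ccl3 stood for a mean per-base read depth of 3.18.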
